A study of Mus musculus with 8 samples.

Results

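The genes described here are 30 mouse genes of meiosis and homologous recombination, a list of symbols covering the known steps of meiotic prophase and the divisions. All 30 had at least 1 probe on the array, 47 probes in total, and 28 had a probe bright enough to test, out of 16969 genes tested in the study. The study asked what di-(2-ethylhexyl)-phthalate (DEHP, a plasticiser) does to gene expression in the mouse testis: 4 male C57BL/6J mice received DEHP in corn oil by gavage, 200 mg/kg/day for 21 days, and 4 received corn oil only (vehicle), all 21 weeks old. Areas rich in Sertoli cells, in the middle layer of the seminiferous epithelium, were cut from sections of the right testis by laser, 1 cap per mouse, and the RNA was amplified over 2 rounds before labelling. Each DEHP mouse was set against 1 vehicle mouse on a pair of Agilent 2-colour arrays with swapped dyes, giving 8 arrays and 4 pairs: DEHP mouse 1 with vehicle mouse 2 (pair 1), DEHP mouse 2 with vehicle mouse 3 (pair 2), DEHP mouse 3 with vehicle mouse 4 (pair 3) and DEHP mouse 4 with vehicle mouse 1 (pair 4). The extraction text of the labels names Leydig cells as the captured cells, whereas the titles and tissue labels name Sertoli-cell-rich areas. A capture of this kind is a mixture, so fewer meiotic cells and less RNA per meiotic cell cannot be told apart in any value below.

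Meiosis in the male takes place inside the seminiferous epithelium, where spermatocytes lie between the Sertoli cells that nurse them. In prophase the chromosomes are folded along cohesin axes, programmed breaks are cut in the DNA, the breaks are repaired on the homologous chromosome by strand exchange, and the synaptonemal complex joins the homologues while a few exchanges mature into crossovers. Many genes of this programme are transcribed mostly in spermatocytes, so in a testis capture their RNA reports largely on the germ cells among the captured cells. Others, such as Rad21 and Smc3, also serve body cells, so their RNA need not come from germ cells. In mouse mutants, loss of many of these proteins stops spermatocytes in prophase.

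Each gene was read by 60-base probes, and the letters of 8 of them are shown because the results turn on them: the leading probe of Rad21 and both probes of Smc3, which disagree with each other, the second probes of Rec8 and Aurkc, which also differ from the leading ones, and the leading probes of Sycp1, Sycp3 and Msh4, core genes of synapsis and crossover. They are written 5′ to 3′ as the scanner files list them, all in lower case because no base within a probe is singled out.
Rad21: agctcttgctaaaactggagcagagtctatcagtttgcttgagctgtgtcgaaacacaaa
Smc3, leading probe: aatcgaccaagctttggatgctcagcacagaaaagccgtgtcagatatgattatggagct
Smc3, second probe: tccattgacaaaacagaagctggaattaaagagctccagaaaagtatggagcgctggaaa
Rec8, second probe: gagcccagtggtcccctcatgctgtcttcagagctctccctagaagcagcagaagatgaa
Aurkc, second probe: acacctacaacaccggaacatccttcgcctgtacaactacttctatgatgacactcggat
Sycp1: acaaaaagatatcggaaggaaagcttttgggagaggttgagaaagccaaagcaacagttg
Sycp3: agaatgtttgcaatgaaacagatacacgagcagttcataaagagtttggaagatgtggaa
Msh4: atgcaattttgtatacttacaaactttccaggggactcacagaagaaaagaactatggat
In the mm7 build named by the file headers, the Rad21 probe lies at chr15:52018305-52018364 (minus strand). The leading Smc3 probe lies at chr19:53541035-53542898 (plus strand), a stretch of 1864 bases, and the second Smc3 probe at chr19:53539812-53539871 (plus strand). The Rec8 probe lies at chr14:50491716-50492100 (plus strand) and the Aurkc probe at chr7:6555643-6556508 (plus strand). Those of Sycp1, Sycp3 and Msh4 lie at chr3:102647366-102648037 (minus strand), chr10:88027463-88030553 (plus strand) and chr3:153771540-153773961 (minus strand). A stretch longer than 60 bases means that the probe joins sequence that is apart in the genome, which all of these probes do except the Rad21 probe and the second Smc3 probe. No exon annotation of mm7 was used here.

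Between 49.8% and 59.5% of the probe spots of an array were well above background in a channel, none was saturated, and the number of arrays limits the precision of every value. A probe was tested where it was well above background in at least 4 of the 8 DEHP channels or 4 of the 8 vehicle channels, and each gene was read by its brightest tested probe. Markers of several cell types were present: Clu and Sox9 (Sertoli cells), Acrv1 and Prm1 (spermatids), Acta2 (myoid cells) and Insl3 and Star (Leydig cells) were well above background in all 16 channels. Of 7 endothelial markers on the array 5 were tested and 4 were above background in all 16 channels, while Pecam1 was so in 0. Csf1r (macrophages) was well above background in 5 of 8 DEHP and 6 of 8 vehicle channels, and Zbtb16 (spermatogonia) had no tested probe. The Leydig hormone Insl3 spread most between pairs among these, with log2 ratios of DEHP over vehicle of -0.98, 2.23, -1.49 and -0.25 in pairs 1 to 4, and the part of Leydig RNA in the ratios below was not tested.

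None of the 28 tested meiosis and recombination genes passed the adjusted test between DEHP and vehicle mice. The genes were nearly all detected: 27 of the 28 were above background in all 16 channels, against 82.5% of all genes tested, and only Rad51c was not. Their mean log2 ratios lay below 0 for 22 genes and above 0 for 6, where 50.1% of all genes tested lay below 0. Of their 112 single pair ratios 66 (58.9%) lay below 0, against 49.9% for all genes tested. The means of 25 of the 28 were within 1.2-fold, a share not counted over all genes. The median size of the mean log2 ratio, sign left out, was 0.085, against 0.059 for all genes tested. All genes tested include more dim probes, whose ratios lay closer to 0. For the 4583 genes at a log2 intensity of 7 to 7.5 the quartiles of the mean ratio were -0.032 and 0.029. For the 852 genes at 10 to 10.5 they were -0.077 and 0.10. The medians were not matched for brightness, so they do not show that the members moved more. The median of the 28 ratios was -0.048, and -0.0064, -0.016, -0.087 and -0.055 pair by pair from 1 to 4, against -0.000084 for all genes tested. Across all probes, limma's moderated test over the 4 pairs with Benjamini-Hochberg adjustment made 0 calls at an adjusted p of 0.05 (0 percent of genes, smallest adjusted p 0.903), and 1055 of the 22975 probes had an unadjusted p under 0.05.

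At the unadjusted level, 2 members had a p under 0.05, where 4.80% of all genes tested did: Aurkc with a ratio above 0 (2.48% of all genes in that direction) and Rad21 with a ratio below 0 (2.33% of all genes in that direction). The ratio had the same sign in all 4 pairs for 3 members, where 13.6% of all genes tested did: Aurkc above 0 (6.69% of all genes) and Smc3 and Rad21 below 0 (6.89% of all genes). The dye-swapped arrays of a pair differed in sign for Aurkc in pair 2 (-0.053 and 0.068) and for Rad21 in pair 3 (-0.28 and 0.078). Those of Smc3 all lay below 0. For 0 of the 28 members did the 4 DEHP mice and the 4 vehicle mice separate without overlap, where 1.74% of all genes tested did. The 95% interval of the mean ratio stayed within 2-fold for 27 of the 28 members and within 1.5-fold for 25, so a change of that size or larger lay outside the interval for most of them. The same count was not made over all genes tested.

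**Figure D1:**
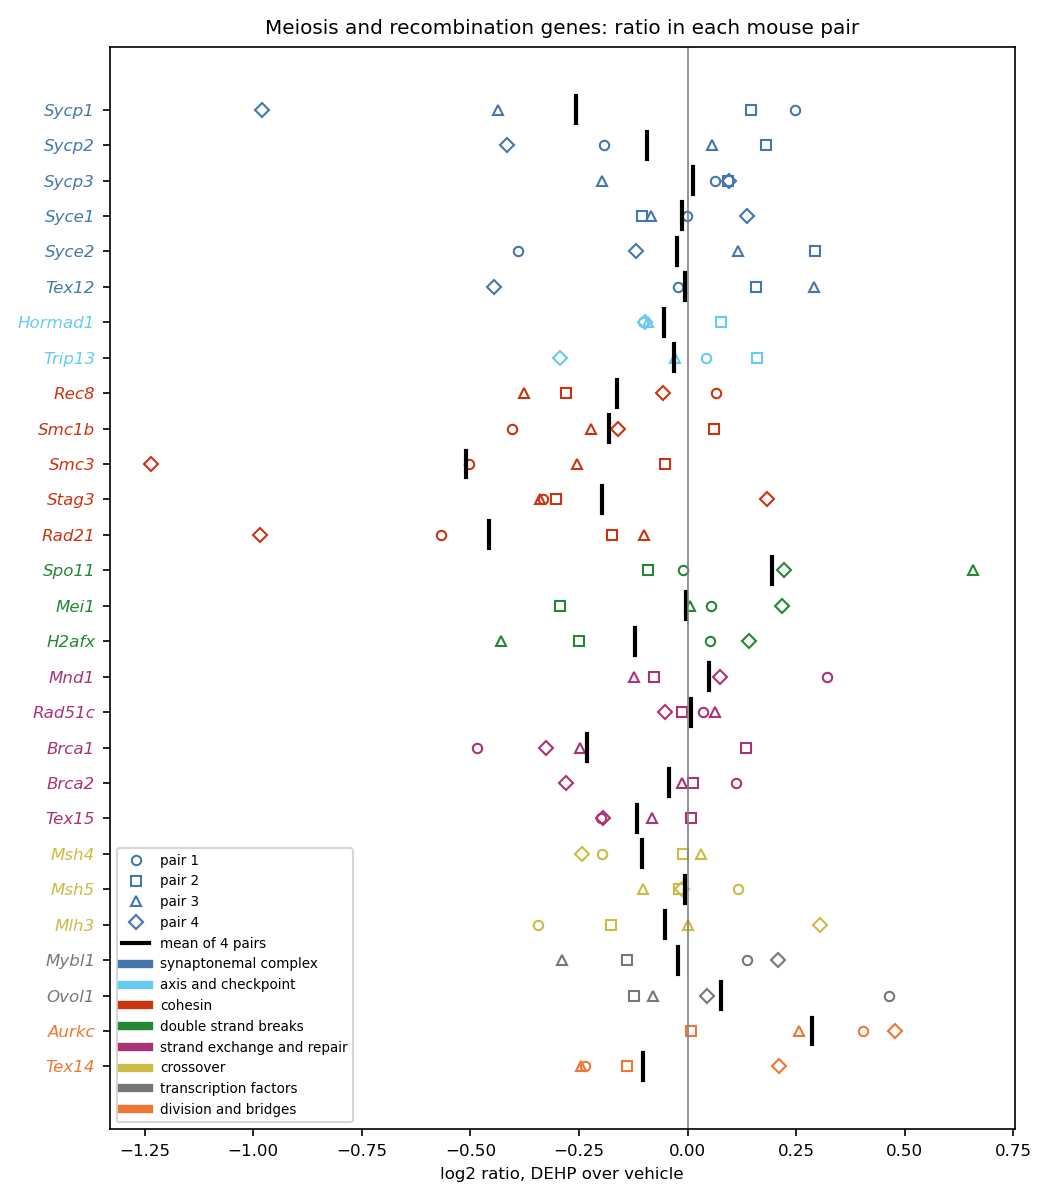
Log2 ratio of DEHP over vehicle (horizontal axis) for the 28 tested meiosis and recombination genes (rows, coloured by role); each open symbol is 1 mouse pair and the black bar the mean of the 4 pairs. The cohesin genes lie mostly left of 0, with Smc3 and Rad21 reaching -1.24 and -0.98 in pair 4, and the Aurkc pairs all lie right of 0.

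The lowest mean ratios of the set were those of the cohesin genes Smc3 and Rad21, with Sycp1 and Brca1 next and the other 3 cohesin genes after them. Cohesin is the ring that holds sister chromatids together and forms the chromosome axis; in meiosis it is built from the closing subunits REC8 and RAD21, the arms SMC1B and SMC3 and the clamp STAG3. All 5 mean ratios lay below 0, as did 17 of the 20 single pair ratios (49.9% of the pair ratios of all genes tested), and the median of the 5 was -0.20, against -0.000084 for all genes. These 20 ratios come from the same 4 mouse pairs, so they are not independent, and the role is singled out for its low values. They are those of the leading probes: second probes had 2 pairs above 0 for Smc3, 1 for Rad21 and 1 for Rec8. No cohesin gene passed the adjusted test, and 1 of the 5 had an unadjusted p under 0.05, where 4.80% of all genes tested did.

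Rad21, whose product closes cohesin rings in body cells as well as in spermatocytes, had log2 intensities of 12.43, 12.44, 12.90 and 12.72 in DEHP mice 1 to 4, against 13.70, 12.99, 12.61 and 13.00 in vehicle mice 1 to 4. Vehicle mouse 1 stood above the other 7 mice, and the groups overlapped because vehicle mouse 3 lay below DEHP mice 3 and 4. Its pair ratios were -0.57, -0.17, -0.10 and -0.98 in pairs 1 to 4, a mean of -0.46 ± 0.41 (SD, n = 4 pairs) with a 95% interval of -0.88 to -0.037. Limma gave an unadjusted p of 0.0382 and an adjusted p of 0.903. A second Rad21 probe gave ratios of -0.36, 0.048, -0.42 and -0.13 in pairs 1 to 4 and a mean of -0.22.

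Smc3, the arm subunit common to every cohesin ring, had log2 intensities of 9.18, 9.17, 9.26 and 9.10 in DEHP mice 1 to 4, against 10.33, 9.68, 9.22 and 9.52 in vehicle mice 1 to 4. The DEHP mice lay close together, while vehicle mouse 1 again stood highest and vehicle mouse 3 fell within the DEHP mice. The pair ratios were -0.50, -0.052, -0.25 and -1.24 in pairs 1 to 4, with a mean of -0.51 ± 0.52 (SD, n = 4 pairs) and a 95% interval of -1.04 to 0.016 (limma, unadjusted p 0.055, adjusted p 0.903). The second Smc3 probe, shown above and on another stretch of the gene, did not give this: its ratios were 0.24, 0.019, -0.073 and -0.22 in pairs 1 to 4, with a mean of -0.0088. Both probes were above background in all 16 channels, so the 2 readings of Smc3 disagree and its ratio is uncertain.

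The cohesin subunits specific to meiosis lay nearer to 0. Smc1b, the meiotic arm, had log2 intensities of 13.58, 13.72, 13.72 and 14.18 in DEHP mice 1 to 4, against 14.34, 13.99, 13.66 and 13.94 in vehicle mice 1 to 4, and the groups overlapped. Its ratios were -0.40, 0.062, -0.22 and -0.16 in pairs 1 to 4, a mean of -0.18 ± 0.19 (SD, n = 4 pairs; limma, adjusted p 0.903). Stag3, the meiotic clamp, had levels of 12.81, 12.76, 12.73 and 13.01 in DEHP mice 1 to 4, against 12.83, 13.15, 13.06 and 13.07 in vehicle mice 1 to 4. All DEHP mice except mouse 4 lay below the vehicle mice, and pair 4 ran the other way. Its ratios were -0.33, -0.30, -0.34 and 0.18 in pairs 1 to 4, a mean of -0.20 ± 0.25 (SD, n = 4 pairs; limma, adjusted p 0.903). Rec8, the meiotic closing subunit, had levels of 12.62, 12.70, 12.83 and 12.81 in DEHP mice 1 to 4, against 12.86, 12.56, 12.98 and 13.21 in vehicle mice 1 to 4, with overlap between the groups. Its ratios were 0.065, -0.28, -0.38 and -0.057 in pairs 1 to 4, a mean of -0.16 ± 0.20 (SD, n = 4 pairs; limma, adjusted p 0.903), and its second probe averaged -0.019.

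Pair 4 carried much of the Rad21 and Smc3 ratios. Without it the mean was -0.28 for Rad21 and -0.27 for Smc3, whereas that of Stag3 became -0.32, all still without an adjusted call. With each pair left out in turn, limma's unadjusted p ran from 0.0341 to 0.111 for Rad21, past 0.05 without pair 1 or pair 4, and from 0.00648 to 0.0851 for Aurkc, past 0.05 without pair 1, 3 or 4, with adjusted p-values of 0.602 or more. Limma's unadjusted p of Rad21 was also above 0.05 with median centring (0.0867), with separate channels of unpaired mice (0.0671) and on slide 2 alone (0.0752), and that of Aurkc with the scanner's processed ratio (0.0736). That of Smc3 was under 0.05 in several settings, such as 0.0331 without background correction. On the second probe of each gene, limma's unadjusted p was 0.0663 for Rad21, 0.420 for Aurkc and 0.921 for Smc3. Vehicle mouse 1 of pair 4 was also the highest in round spermatid markers: centred on each gene's mean over the 8 mice, the median level of 14 round spermatid markers was -0.14, 0.074, -0.074 and 0.020 in DEHP mice 1 to 4, against 0.32, -0.11, -0.12 and 0.020 in vehicle mice 1 to 4. The same centred median over the 5 cohesin genes was -0.25, -0.17, -0.17 and -0.013 in DEHP mice 1 to 4, against 0.45, 0.15, -0.21 and 0.14 in vehicle mice 1 to 4. Vehicle mouse 1 was thus the highest mouse for both lists. It was not the highest for 13 elongating spermatid markers (-0.11, with vehicle mouse 2 highest at 0.23) or for 11 pachytene markers (0.10, with vehicle mouse 2 highest at 0.22). The part of germ-cell content in the cohesin values was not tested. Among 6 tested cohesin genes outside the 30 (Smc1a, Stag1, Stag2 and the cohesin regulators among them, picked after the values above were seen), 4 lay below 0 and the median was -0.017.

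**Figure D2:**
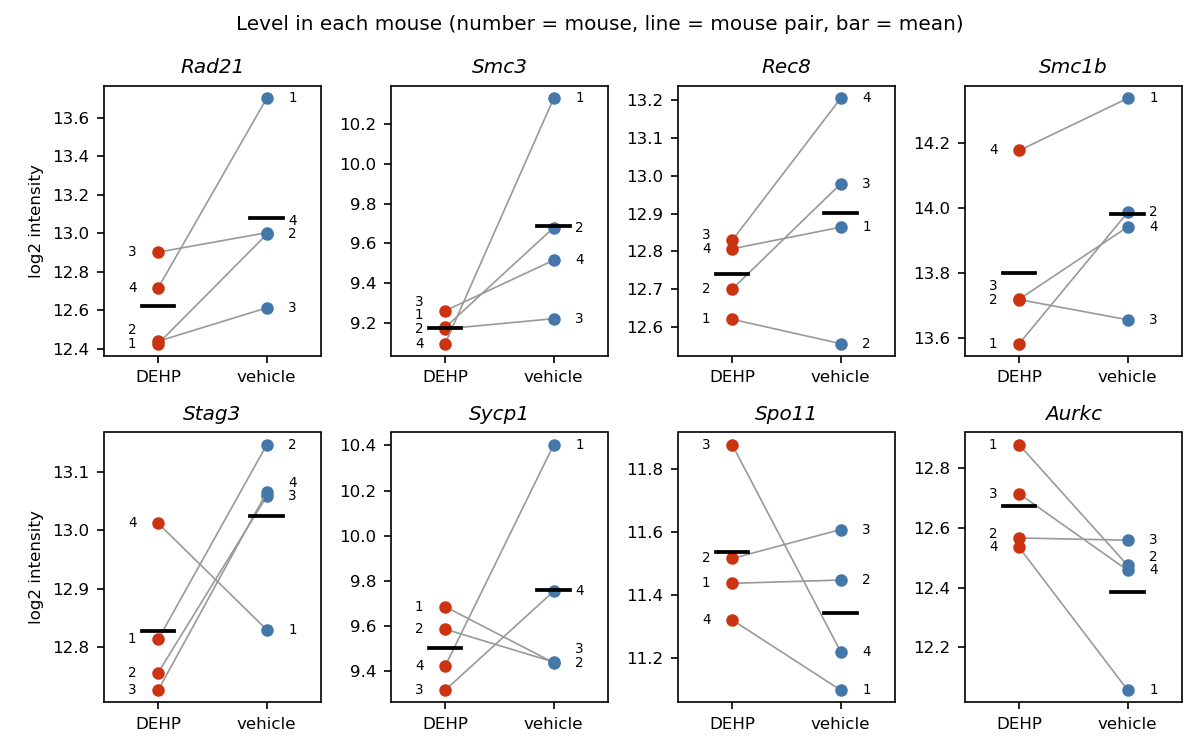
Log2 intensity (vertical axis, a separate scale in each panel) of 8 genes in each DEHP mouse (red, left) and each vehicle mouse (blue, right); numbers name the mice, lines join the mice hybridised together and black bars are group means. Vehicle mouse 1 is the highest mouse for Rad21, Smc3, Smc1b and Sycp1 and the lowest for Spo11 and Aurkc.

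The synaptonemal complex genes centred on 0. The median of their 6 mean ratios was -0.019, with 5 below 0 and 1 above, and 12 of their 24 pair ratios below 0. Sycp1, the transverse filament that zips the homologues together, varied most of all 28 members between pairs: its levels were 9.69, 9.59, 9.32 and 9.42 in DEHP mice 1 to 4, against 10.40, 9.44, 9.44 and 9.75 in vehicle mice 1 to 4. Vehicle mouse 1 stood above all others, vehicle mouse 4 came next, and the other 2 vehicle mice lay among the DEHP mice. Its ratios were 0.25, 0.15, -0.44 and -0.98 in pairs 1 to 4, a mean of -0.26 ± 0.57 (SD, n = 4 pairs) with a 95% interval of -0.83 to 0.32 (limma, adjusted p 0.910).

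The lateral element proteins SYCP2 and SYCP3 coat the cohesin axis. Sycp3 had levels of 10.23, 10.19, 9.99 and 10.27 in DEHP mice 1 to 4, against 10.17, 10.16, 10.09 and 10.19 in vehicle mice 1 to 4, and the groups lay within a narrow band. Its mean ratio was 0.013 ± 0.14 (SD, n = 4 pairs), and that of Sycp2 was -0.093 ± 0.26, with -0.18 and -0.023 on its other probes. Of the central element genes, which stabilise the zipped complex, Syce1 averaged -0.013 ± 0.11, Syce2 -0.025 ± 0.30 and Tex12 -0.0052 ± 0.32 on this scale of log2 ratios. Syce1 had levels of 15.43 to 15.68 in DEHP mice and 15.32 to 15.69 in vehicle mice, which overlapped. One further Tex12 probe, on the opposite strand from the others, was above background in 0 channels.

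The axis and checkpoint genes had small mean ratios. Hormad1, an axis protein that marks chromosomes not yet synapsed, had levels of 8.96, 9.17, 8.92 and 8.77 in DEHP mice 1 to 4, against 8.87, 9.06, 9.09 and 9.01 in vehicle mice 1 to 4 and a mean ratio of -0.054 ± 0.087 (SD, n = 4 pairs). Its other probe averaged 0.12, so the sign depended on the probe. Trip13, the ATPase that strips HORMA proteins off synapsed axes, averaged -0.030 ± 0.19. In both genes the DEHP and vehicle mice overlapped.

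Genes of break formation pointed in different directions. Spo11 encodes the topoisomerase-like enzyme that cuts the programmed breaks, and its levels were 11.44, 11.52, 11.88 and 11.32 in DEHP mice 1 to 4, against 11.10, 11.45, 11.61 and 11.22 in vehicle mice 1 to 4. DEHP mouse 3 was the highest of the 8 mice and vehicle mouse 1 the lowest, with the rest overlapping. The ratios were -0.010, -0.092, 0.66 and 0.22 in pairs 1 to 4, a mean of 0.19 ± 0.34 (SD, n = 4 pairs) and a 95% interval of -0.16 to 0.55 (limma, adjusted p 0.908), and the other Spo11 probe averaged 0.011. Mei1, needed for break formation in mouse, averaged -0.0044 ± 0.21. H2afx (now H2ax), the histone variant that is phosphorylated around breaks and over the sex chromosomes, averaged -0.12 ± 0.26, with pair ratios of 0.052, -0.25, -0.43 and 0.14 in pairs 1 to 4.

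Of the 6 strand exchange and repair genes 5 were tested, and their median was -0.042. Dmc1, the meiosis-specific recombinase, was well above background in 0 of 8 DEHP channels and 1 of 8 vehicle channels and was not tested. Rad51c, a gene of break repair, passed with 4 of 8 DEHP channels and 3 of 8 vehicle channels, and its ratio of 0.0087 ± 0.052 is that of a dim probe. Mnd1, which helps strands invade the homologue, averaged 0.049 ± 0.20.

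Brca1, which acts in break repair and in silencing of the sex chromosomes, had log2 intensities of 8.72, 9.18, 8.73 and 9.17 in DEHP mice 1 to 4, against 9.50, 9.21, 9.04 and 8.97 in vehicle mice 1 to 4. The groups overlapped, and pair 2 ran against the other pairs, with ratios of -0.48, 0.13, -0.25 and -0.33 in pairs 1 to 4. The mean was -0.23 ± 0.26 (SD, n = 4 pairs; limma, unadjusted p 0.0883, adjusted p 0.903). Tex15, a germ-cell gene needed for break repair in mouse spermatocytes, had ratios of -0.20, 0.0090, -0.081 and -0.20 in pairs 1 to 4 and a mean of -0.12 ± 0.10 (SD, n = 4 pairs; limma, unadjusted p 0.0873, adjusted p 0.903). Brca2, which acts in break repair, averaged -0.042 ± 0.17.

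The crossover genes likewise stayed near 0, with a median of -0.053 over the 3 tested of 4. Msh4 and Msh5 form the clamp that stabilises recombination intermediates. Msh4 had levels of 7.82, 7.90, 7.98 and 7.99 in DEHP mice 1 to 4, against 8.23, 8.02, 7.91 and 7.95 in vehicle mice 1 to 4 and a mean ratio of -0.11 ± 0.14 (SD, n = 4 pairs). Msh5 averaged -0.0048 ± 0.090, and Mlh3, part of the nuclease that resolves crossovers, -0.053 ± 0.28. The Msh5 probe was dim, with a mean log2 intensity of 7.34 over the arrays, against 7.02 for Rad51c. Tex11, an X-linked crossover gene, was well above background in 2 of 8 DEHP channels and 2 of 8 vehicle channels and was not tested.

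The transcription factors of the set gave mean ratios near 0. Mybl1 encodes A-MYB, the activator of many pachytene genes, and had levels of 8.40, 8.25, 8.37 and 8.45 in DEHP mice 1 to 4, against 8.25, 8.26, 8.39 and 8.66 in vehicle mice 1 to 4. Its mean ratio was -0.021 ± 0.23 (SD, n = 4 pairs), with overlapping groups. Ovol1, a zinc-finger repressor needed for passage through pachytene, averaged 0.077 ± 0.27, and its other probe 0.0034.

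Aurkc, the germ-cell Aurora kinase that acts at the meiotic divisions, had the highest mean ratio of the 28. Its levels were 12.88, 12.57, 12.71 and 12.53 in DEHP mice 1 to 4, against 12.06, 12.47, 12.56 and 12.46 in vehicle mice 1 to 4. DEHP mice 1 and 3 lay above all 4 vehicle mice, and DEHP mouse 2 was nearly level with vehicle mouse 3, at 12.57 against 12.56. Vehicle mouse 1 was the lowest, and the groups overlapped because vehicle mouse 3 lay above DEHP mouse 4. The ratios were 0.40, 0.0075, 0.26 and 0.48 in pairs 1 to 4, a mean of 0.29 ± 0.21 (SD, n = 4 pairs) or 1.22-fold, with a 95% interval of 0.056 to 0.52 (limma, unadjusted p 0.0242, adjusted p 0.903). The second Aurkc probe gave 0.012, 0.052, -0.15 and 0.48 in pairs 1 to 4 and a mean of 0.10, with 1 pair below 0. Tex14, which keeps the bridges between dividing germ cells open, had ratios of -0.24, -0.14, -0.25 and 0.21 in pairs 1 to 4 and a mean of -0.10 ± 0.21 (SD, n = 4 pairs).

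The ratio of a member varied from pair to pair. The SD of a member's ratio over the 4 pairs had a median of 0.21, with a range of 0.052 for Rad51c to 0.57 for Sycp1, against a median of 0.16 over all genes tested. Dye-swapped arrays of the same pair disagreed by less: the error of a pair mean from its dye swap had a median of 0.097, and 24 of the 28 members had a pair SD above their own. Vehicle mouse 1 was the highest of the 8 mice for 11 members and the lowest for 7, where it was the highest for 20.4% and the lowest for 22.9% of all genes tested. For 18 of the 28 members the DEHP mice had a lower SD than the vehicle mice, where 53.6% of all genes did. The median SD of a member's level was 0.125 among DEHP mice and 0.21 among vehicle mice, against 0.123 among DEHP mice and 0.127 among vehicle mice for all genes. All genes tested include more dim probes, and none of these all-gene SDs was matched for brightness.

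Pairs with no mouse in common resembled each other little across the 28 members. Pearson's r between the ratios of different pairs ran from -0.35 (pairs 2 and 4) to 0.40 (pairs 1 and 4), described over genes that share the same arrays and so are not independent. The same range over all genes tested was -0.33 to 0.21. Between the dye-swapped arrays of 1 pair, r over the 28 members was 0.70, 0.39, 0.60 and 0.87 in pairs 1 to 4.

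Slide and dye orientation went together, as slide 1 held the 4 arrays with DEHP in Cy5 and slide 2 the 4 arrays with DEHP in Cy3. On slide 1 alone 16 of the 28 members lay below 0 and their median was -0.0040, and on slide 2 alone 21 lay below 0 with a median of -0.096. Rad21 averaged -0.57 on slide 1 and -0.35 on slide 2, and Smc3 -0.56 and -0.46 on slides 1 and 2. Aurkc averaged 0.25 on slide 1 and 0.33 on slide 2. These 3 genes kept their sign on both slides, as did each cohesin gene and other members such as Sycp1, Spo11 and Brca1. Both slides carry RNA of the same mice. Against the mean of the 4 pairs, 12 of the 28 members changed sign on slide 1 alone and 1 on slide 2 alone. Tex14 and Brca2 were among those of slide 1: Tex14 averaged 0.18 on slide 1 and -0.39 on slide 2, and Brca2 0.20 and -0.28 on slides 1 and 2.

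**Figure D3:**
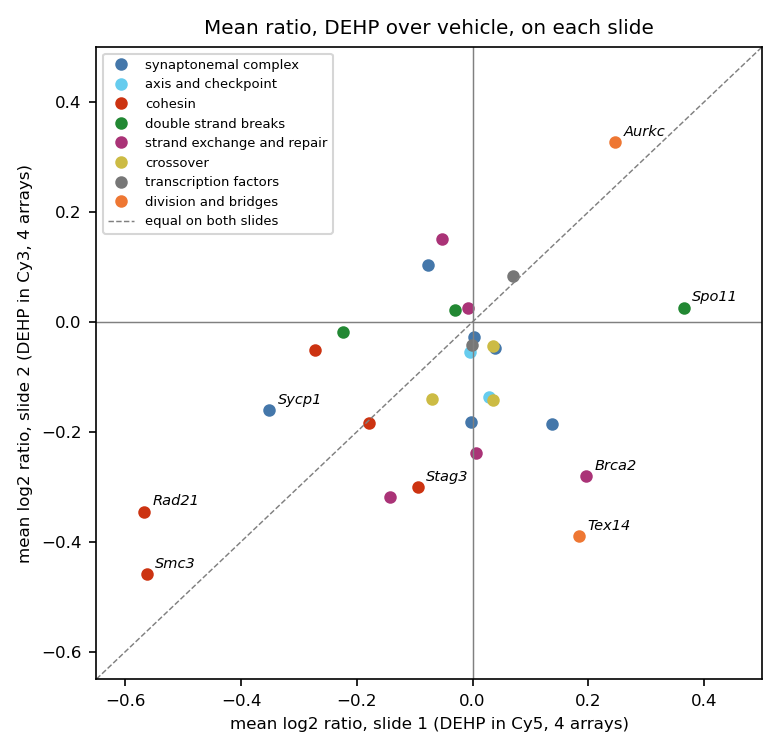
Mean log2 ratio of DEHP over vehicle on slide 1 (horizontal axis) against slide 2 (vertical axis), 4 arrays each, for the 28 tested members, coloured by role; the dashed line marks equal values. Rad21 and Smc3 lie at the lower left and Aurkc at the upper right, while Tex14 and Brca2 lie right of 0 on slide 1 and below 0 on slide 2.

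The scaling mattered for the count of genes below 0. With each array centred on its median in place of an intensity-dependent loess fit, 16 of the 28 members lay below 0, against 22 with loess, and the member median was -0.0076. The 5 cohesin genes all stayed below 0 under this scaling, but Rec8 at -0.016, Smc1b at -0.012 and Stag3 at -0.053 lay close to it, with Rad21 at -0.31 and Smc3 at -0.46. The central element genes went the other way, Syce1 to 0.19 and Syce2 to 0.17. The median of all probes tested was 0.012 under this scaling.

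**Figure D4:**
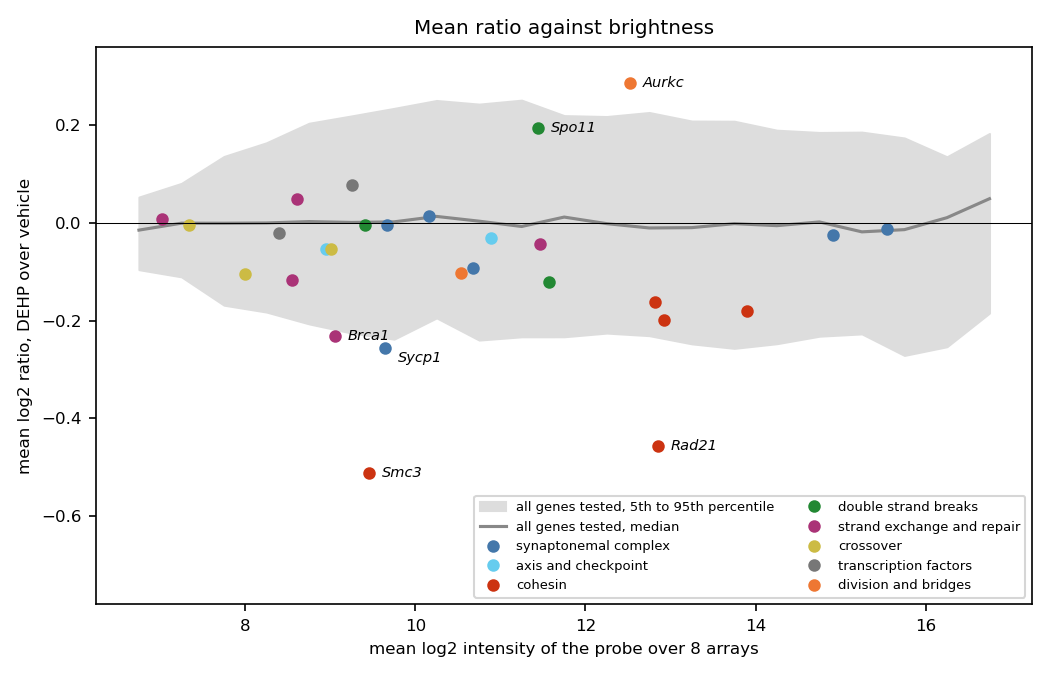
Mean log2 ratio of DEHP over vehicle (vertical axis) against the mean log2 intensity of the probe over 8 arrays (horizontal axis) for the 28 tested members, coloured by role; the grey band holds the 5th to 95th percentile of all genes tested at that brightness. Smc3, Rad21, Sycp1 and Brca1 lie below the band and Aurkc above it, and the rest lie inside.

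Other genes of the meiotic programme gave no call either. Of 48 further meiosis genes listed, 45 were on the array and 42 were tested; 18 lay above 0 and 24 below (50.1% of all genes tested lay below), 0 had an unadjusted p under 0.05 in limma's test (4.80% of all genes tested) and 0 passed the adjusted test. Their median was -0.020. The smallest p-values among them belonged to Sun1 (nuclear envelope tether of the telomeres, mean ratio -0.13) and Pds5b (cohesin regulator, -0.092) below 0, and to the repair genes Rad51b (0.16) and Rad51d (0.072) above 0.

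Markers of the cells around and after meiosis were measured beside the members. Of 11 tested pachytene spermatocyte markers 8 lay below 0, with a median of -0.055. Of 10 tested spermatogonia markers 8 lay below 0 (median -0.053), and of 14 round spermatid markers 10 (median -0.041). Of all genes tested 50.1% lay below 0. Elongating spermatid markers had a median of 0.0094 over 13 genes, with 6 below 0, and Sertoli markers 0.028 over 19, with 6 below 0. The lean below 0 was not limited to germ-cell lists: 6 of 8 Leydig markers (median -0.11) and 6 of 7 macrophage markers (median -0.066) lay there. So did 3 of 5 endothelial and 3 of 6 myoid markers. Round spermatid markers swung between pairs: the median was 0.049 in pair 1, 0.26 in pair 2, -0.11 in pair 3 and -0.33 in pair 4, a wider range than that of the 28 members. The part of these marker shifts in the member ratios was not tested.

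**Figure D5:**
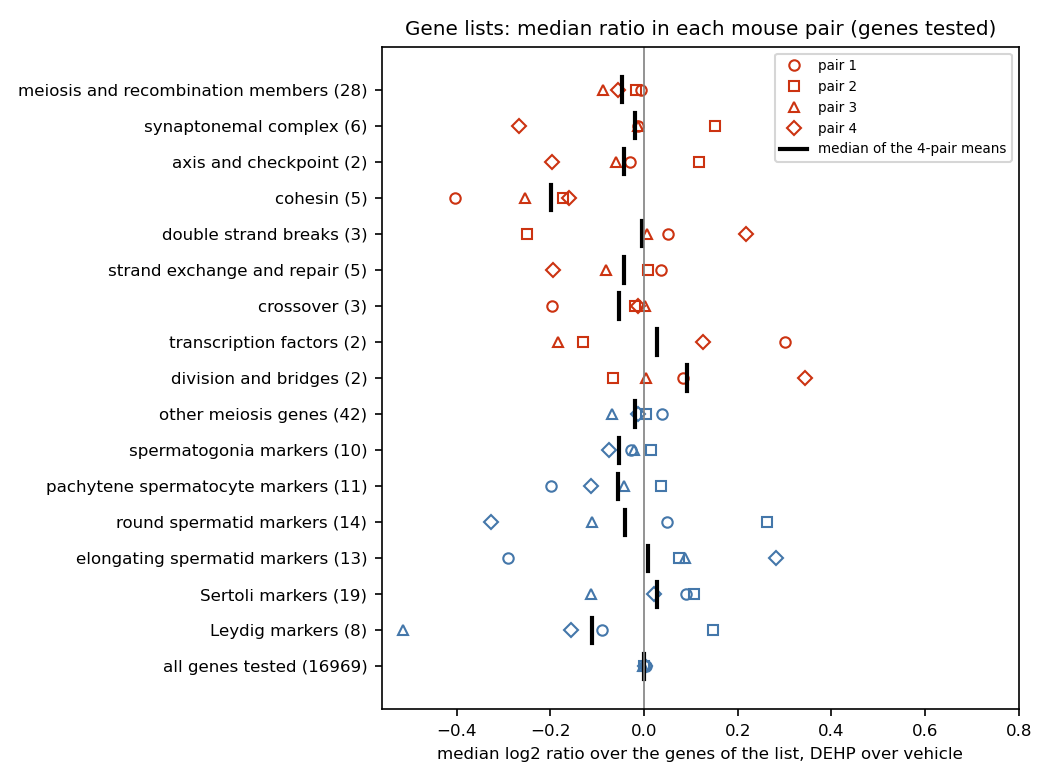
Median log2 ratio of DEHP over vehicle (horizontal axis) over the tested genes of each list (rows, number of genes in brackets) in each of the 4 mouse pairs (open symbols), with the median of the 4-pair means as a black bar; red lists are the 28 members and their roles. The cohesin medians lie below 0 in all 4 pairs, and the round spermatid medians run from -0.33 in pair 4 to 0.26 in pair 2.

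Promoter windows from RefSeq (GRCm38.p6, 250 bases before to 50 after the gene start) matched 23 of the 30 members by symbol. The letters TCCCGC, the core of sites for the E2F family on either strand, stood in 15 of the 23 (65.2%), where 34.5% of 11456 tested genes with a window held them. The 23 include Dmc1, which holds TCCCGC but was not tested on the arrays. The E-box CACGTG stood in 6 of the 23 (26.1%), against 10.7% of tested genes, and AACNGTT, a MYB-type site, in 2 of the 23 (8.7%), against 4.42%. No test was run on these shares, which describe letters only and leave out the 7 members with no matched window, with both strands searched; none of the motifs contains another.

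All 4 cohesin genes with a window held TCCCGC, and the windows of the meiosis-specific Stag3 and Smc1b are shown because they carry it. The capitals mark TCCCGC or its reverse complement.
Stag3, chr5:138280259-138280558 (GRCm38.p6, plus strand): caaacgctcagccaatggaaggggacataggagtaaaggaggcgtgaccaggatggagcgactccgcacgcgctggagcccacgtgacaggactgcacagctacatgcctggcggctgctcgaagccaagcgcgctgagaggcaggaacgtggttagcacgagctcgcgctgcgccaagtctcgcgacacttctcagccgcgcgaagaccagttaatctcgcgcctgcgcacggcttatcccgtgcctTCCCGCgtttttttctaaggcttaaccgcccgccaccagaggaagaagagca
Smc1b, chr15:85131908-85132207 (GRCm38.p6, minus strand): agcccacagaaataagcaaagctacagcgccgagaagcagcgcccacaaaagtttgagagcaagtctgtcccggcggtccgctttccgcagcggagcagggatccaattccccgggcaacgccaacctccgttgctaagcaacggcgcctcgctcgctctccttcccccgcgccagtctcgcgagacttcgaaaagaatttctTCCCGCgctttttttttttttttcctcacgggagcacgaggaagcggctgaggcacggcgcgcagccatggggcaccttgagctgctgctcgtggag
Each window held the letters once. Neither gene passed the adjusted test between DEHP and vehicle mice, with mean ratios of -0.20 for Stag3 and -0.18 for Smc1b. The windows of Rad51c and Tex14 overlap on opposite strands, so those genes share part of the sequence searched.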

How the data were processed

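The deposited files of the array scanner hold, for every spot, intensities of both dyes, background medians, flags and a log10 ratio of red over green, computed by Agilent's extraction software per the file headers. A further table holds the authors' own log2 ratios, which ran DEHP over vehicle on all 8 arrays when set against the scanner ratios, and how its values were filtered and scaled is not given in the sources used here. Limma is named in the submitters' processing notes, with no role given.

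Mean intensities were corrected with limma 3.58.1 in R 4.3.3 (normexp, offset 50), control spots and outlier-flagged spots left out, and loess was fitted within each array. Ratios were turned to DEHP over vehicle, the 2 dye-swapped arrays of a pair were averaged, and the mean over 4 pairs was tested with limma, Benjamini-Hochberg adjusted over the 22975 probes kept. Per-mouse levels came from separate channels after Aquantile scaling. The fit was tested on simulated data. The pairing is by array: a DEHP and a vehicle mouse shared arrays. The labels name independent mice.

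The members and lists were chosen with earlier results of these data known. Named are all 30 members, of the other meiosis genes the 2 with the smallest unadjusted p in each direction, and marker genes where a result turns on them. The alternatives were other background corrections, scalings, filters, probes, slides, blocks, the authors' ratios and leaving out each pair.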

Additional observations from a re-analysis of the deposited data

Results flagged for a closer look

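Of 84 sets of 4 values examined (pair ratios, DEHP levels and vehicle levels of the 28 members), 5 had 1 value far from the other 3, where chance gives about 4.2. The Sycp3 ratio was -0.198 in pair 3 and 0.0634 to 0.095 in the other pairs. The Hormad1 ratio was 0.0766 in pair 2 and -0.103 to -0.0912 in the others. For Stag3 the ratio was 0.182 in pair 4 and -0.339 to -0.302 in the others, so its mean of -0.20 falls short of those 3 pairs. The Ovol1 log2 level of 9.6 in DEHP mouse 1 stood above the 9.13 to 9.21 of the other DEHP mice. The Tex14 level of 10.8 in DEHP mouse 4 stood above 10.4 in the other DEHP mice.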

How the results depend on the processing

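The adjusted test made 0 calls among the members in every alternative run, with adjusted p-values from 0.164 to 1.000. For the count of probes with an unadjusted p under 0.05 (1055 in the report), slide 1 alone gave 1716, slide 2 alone 2425, and leaving out 1 pair 497 to 1932. With the 8 arrays as separate samples and no replicate block, that is without averaging the arrays of a pair, it was 3243; the pairing by array comes from the design, and dropping it made no adjusted call (smallest adjusted p of a member 0.164). With slide as a block and the replicate block fitted by an estimated correlation, the smallest adjusted p of a member was 0.603. The median ratio of the members (-0.048) was -0.0076 with median centring, -0.11 over the 21 members in the authors' deposited table, -0.0040 on slide 1, -0.096 on slide 2, and -0.085 to -0.049 with 1 pair left out. Members near 0 changed sign, and the cause was not tested. Log2 ratios that turned over were, without background correction, Sycp3 -0.0047, Syce1 0.0024, Tex12 0.0017, Rad51c -0.010 and Msh5 0.019; with the scanner's processed ratio, Sycp3 -0.016, Syce1 0.025, Tex12 0.028, Mnd1 -0.0077 and Msh5 0.0023; with median centring, Syce1 0.19, Syce2 0.17, Tex12 0.048, Trip13 0.068, Mei1 0.041 and Brca2 0.068; and in the authors' deposited table, Tex12 0.040 and Brca2 0.017. On slide 1 alone they were Sycp3 -0.077, Syce1 0.0018, Syce2 0.14, Tex12 0.038, Hormad1 0.028, Mnd1 -0.053, Rad51c -0.0075, Brca2 0.20, Tex15 0.0055, Msh5 0.034, Mlh3 0.036 and Tex14 0.18, on slide 2 alone Mei1 0.021, and on another probe of the gene Hormad1 0.12 and Msh5 0.016. With 1 pair left out, the ratios of members that changed sign ran over Sycp2 -0.18 to 0.015, Sycp3 -0.014 to 0.084, Syce1 -0.063 to 0.017, Syce2 -0.13 to 0.10, Tex12 -0.10 to 0.14, Trip13 -0.093 to 0.058, Mei1 -0.078 to 0.092, Mnd1 -0.042 to 0.11, Rad51c -0.010 to 0.029, Brca2 -0.093 to 0.037, Msh5 -0.045 to 0.028, Mlh3 -0.17 to 0.044, Mybl1 -0.10 to 0.068 and Ovol1 -0.052 to 0.14. Rad21, Smc3 and the other cohesin genes and Aurkc kept their sign in each alternative that gave them a value, as did Sycp1, Spo11, H2afx, Brca1 and Msh4. The alternatives reuse the same mice, so a kept sign is not independent support. Some of these values lay close to 0: Smc3 was -0.0088 on its second probe, and H2afx -0.0040, Smc1b -0.012 and Rec8 -0.016 with median centring. With 4 mice a group and a median pair SD of 0.21, a difference of that size could not be told from mouse-to-mouse spread. Dmc1 and Tex11 were above background in too few channels to be tested.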
